A study of Mus musculus with 12 samples.

Results

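The receptors that hold a cell to its matrix were examined in the hypertrophic zone of the mouse growth plate: the integrin alpha and beta subunits, the syndecans and glypicans, the discoidin domain receptors Ddr1 and Ddr2, and Cd44. Members were all probes whose gene name in the scanner files belongs to one of these families, which gave 81 probes of 38 genes among 41174 probes in all. Itgad has no probe on this array. Of the 38 genes, 13 have 1 probe and 25 have several, up to 6 for Itga4.

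Hypertrophic zones were dissected with a scalpel under the microscope from frozen sections of 1 tibia of each 14 day old mouse, and the RNA was amplified in 2 linear rounds and labelled with Cy3. Each of the 12 mice had its own single-colour array. The Schmid mice (n = 3) carried Col10a1 p.Asn617Lys on both alleles, a change in collagen X that makes it misfold. The Cog mice (n = 3) carried the ColXTgcog transgene, in which the collagen X promoter directs a misfolding thyroglobulin to the hypertrophic zone; mice with 1 and with both transgene copies were not told apart. Wildtype littermates of the Schmid background (n = 3) and of the Cog background (n = 3) served as controls, and the comparisons asked how each mutant departs from its own wildtype. All 4 groups share the tissue and age, and p values measure the spread between mice.

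Integrins are heterodimers of an alpha and a beta subunit that span the membrane and tie the matrix to the actin cytoskeleton through talin and kindlin. The alpha subunit largely sets the ligand: collagen, laminin, the Arg-Gly-Asp motif of fibronectin and vitronectin, or counter-receptors on other cells. Syndecans are transmembrane and glypicans lipid-anchored heparan sulfate proteoglycans that present growth factors, the discoidin domain receptors are tyrosine kinases that bind fibrillar collagens, and Cd44 binds hyaluronan. In cartilage, integrins that contain the beta 1 subunit are the main collagen and fibronectin receptors of chondrocytes.

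Values are log2 intensities after normexp correction and quantile normalization, and are compared within a probe only. A probe was called at an adjusted p of 0.05 or less (limma, Benjamini-Hochberg over all probes) together with a change of at least 2-fold, and a fold with a minus sign denotes a level below wildtype. Probes of one gene are named by accession and numbered from the brightest. Of the 81 probes, 34 (of 23 genes) were well above background on all 12 arrays, 33 on some and 14 on none. The share of the 81 probes above background ranged from 59.3 to 64.2% on the Schmid arrays, 56.8 to 71.6% on their wildtype arrays, 44.4 to 58.0% on the Cog arrays and 46.9 to 69.1% on theirs. Over all probes the share was 58.5 to 61.4% on the Schmid and 47.4 to 58.9% on their wildtype arrays. It was 39.2 to 47.6% on the Cog and 40.5 to 58.0% on their wildtype arrays. The number of arrays limits the precision. The 12 arrays lay on 4 slides, none of which held a mutant together with the wildtype of the same background. The effects of slide and genotype therefore cannot be told apart. This also holds for the alternative fit with slide as a random block, whose slide correlation was -0.122.

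All 8 chondrocyte genes checked (Col2a1, Acan, Sox9, Comp, Matn1, Hapln1, Col9a1 and Col10a1) were well above background on every array. RNA of other cell types was also measured, and several of their genes were called lower in Schmid. Of all probes, 4.69% were called lower in Schmid and 0.748% in Cog. Among those well above background on all arrays the shares were 10.7 and 1.23%. The mean level of 6 endothelial genes was 9.79 to 10.2 on the Schmid arrays, against 10.9 to 11.5 on those of its wildtype, with 3 of the 6 called lower (Cdh5, Kdr and Emcn) and Pecam1 on no array above background. That of 5 red cell genes ranged from 11.3 to 12.3 against 13.6 to 15.2, with 3 of 5 called lower, and that of 6 osteoclast genes from 10.4 to 10.7 against 11.1 to 12.02, with 1 called lower (Ocstamp) and Atp6v0d2 on no array above background. Of 6 osteoblast genes, Col1a1 was called lower in Schmid and Dmp1 in Cog, and the mean of the list was 14.7 to 15.1 in Schmid against 15.4 to 16.7 in wildtype. In Cog none of the endothelial, red cell or osteoclast genes was called (limma; 4, 0 and 1 of them were at an unadjusted p of 0.05 or less). The endothelial mean was nevertheless lower on every Cog array, 10.7 to 11.03, than on those of its wildtype, 11.3 to 11.4, and Cdh5 passed the p threshold there at under 2-fold (-0.67, adjusted p of 0.038). The osteoblast mean was 15.4 to 15.9 in Cog against 16.0 to 16.7, also without overlap. The part of these cells in the changes below was not tested, and fewer cells of a type and less RNA per cell cannot be told apart in such samples.

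**Figure D1:**
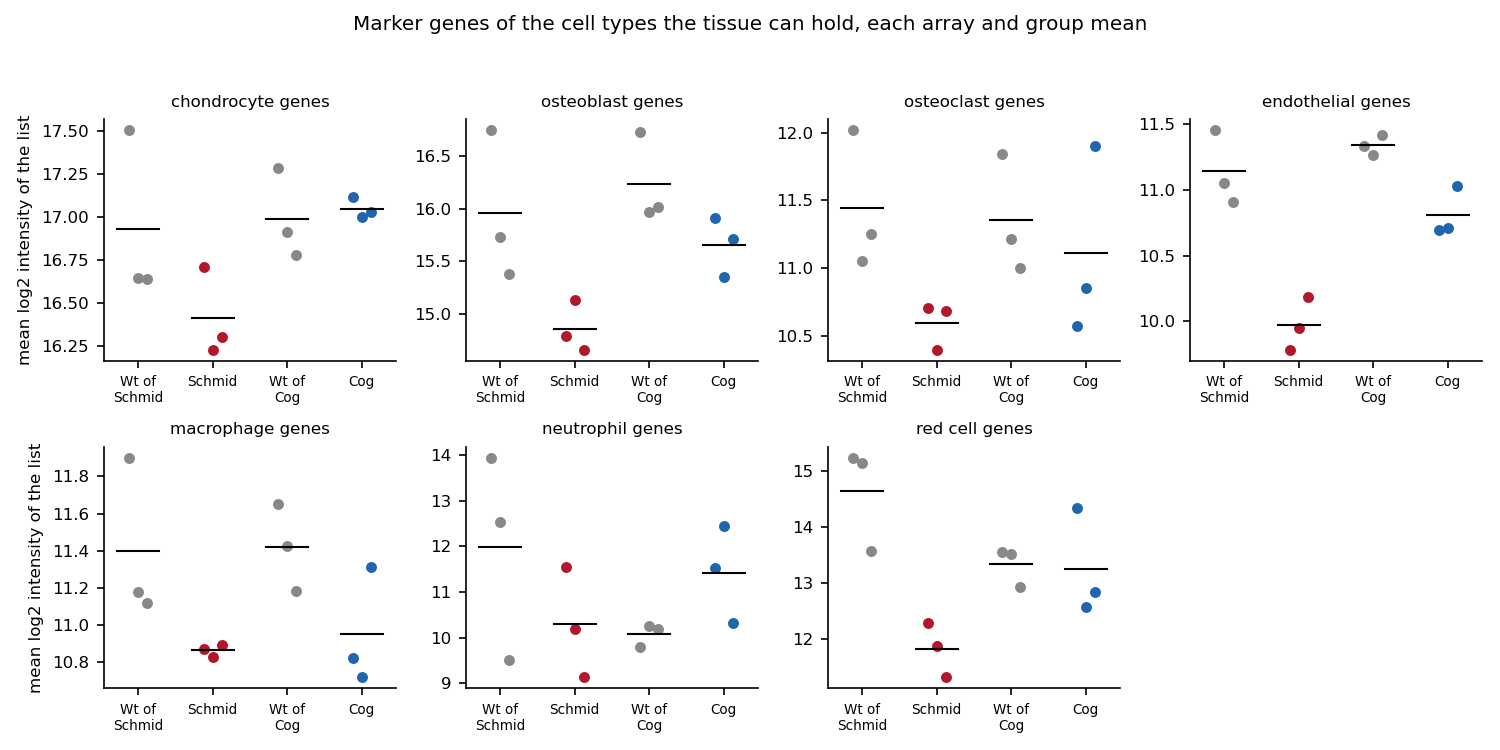
Mean log2 intensity of 7 marker lists on each array (points), with the group mean (line), for the 4 groups of 3 mice. The Schmid points lie wholly below their wildtype points for the endothelial, red cell, osteoclast, osteoblast and macrophage genes, and the Cog points for the endothelial and osteoblast genes. The neutrophil genes spread widely within every group except the Cog wildtypes.

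More member probes were lower than higher in Schmid. Of the 81 probes, 8 (9.88%) were called lower, against 4.69% of all probes, and 1 (1.23%) was called higher, against 5.78%. The genes that fell were Sdc1, Sdc2, Sdc3, Itga1, Itga3, Itga7, Itga9 and Itgb3, each by 1 probe. Among probes well above background on all 12 arrays, 7 of 34 members were called lower, against 10.7% of all such probes, and none was called higher, against 8.64% (limma; at an unadjusted p of 0.05 or less 5 of the 81 were higher and 28 lower). The Schmid arrays lay entirely below their wildtypes at 34 probes (42.0%, against 26.1% of all probes) and entirely above at 5 (6.17%, against 19.3%). The median change of the 81 probes was -0.27 on the log2 scale, with 61 below 0, while the median of all probes was -0.06, with 55.2% below 0. Under 3 other background and scaling choices (the scanner's processed signal with quantile normalization, and 75th percentile scaling of either signal) 16 or 17 member probes were called lower and 2 or 3 higher, while the calls over all probes went from 1930 to between 3455 and 4029 lower and from 2380 to between 2569 and 2979 higher.

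In Cog, 2 member probes (2.47%) rose, against 1.56% of all probes, and 1 (1.23%) fell, against 0.748% (2.31% for both directions). The probes that rose belong to Itga1 and Itga3 and the one that fell to Sdc3. The median change was -0.04 (0.15 with the processed signal at the 75th percentile, where that of all probes was 0.43), and 41 of the 81 probes were below 0. At an unadjusted p of 0.05 or less there were 33 probes in Schmid (40.7%, against 39.3% of all probes) and 20 in Cog (24.7%, against 21.3%).

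**Figure D2:**
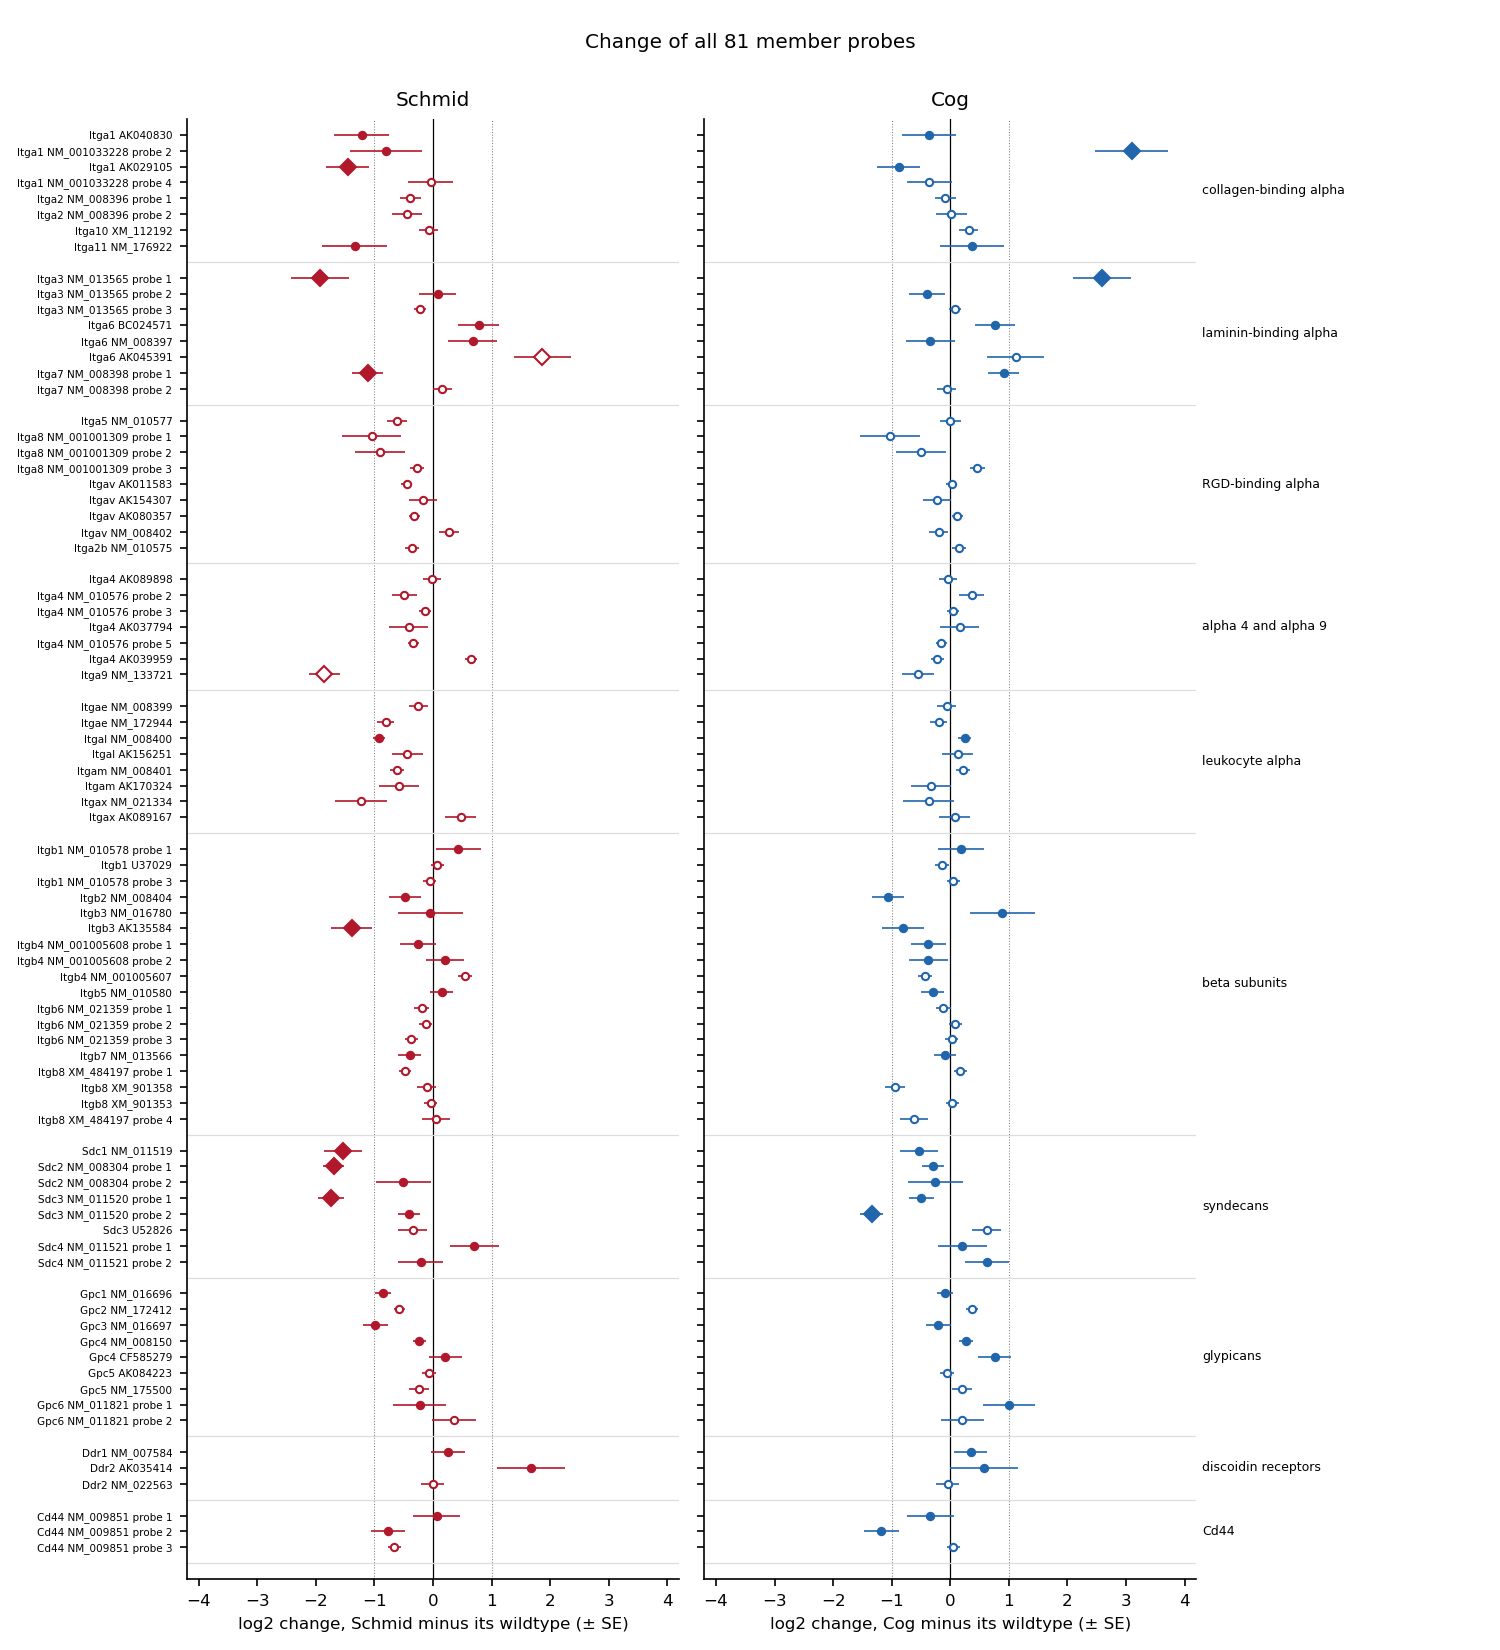
Log2 change (± SE, n = 3 against 3) of all 81 member probes in Schmid (left) and Cog (right), grouped by role; diamonds mark called probes, filled symbols probes well above background on all 12 arrays, and dotted lines a 2-fold change. The called syndecan probes and Itga9 lie left of the line in Schmid, and Itga1 probe 2 and Itga3 probe 1 stand far to the right in Cog.

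Of the 4 syndecan genes, 3 had a probe that fell in Schmid, 1 probe each. Sdc1 is best known from epithelia, Sdc2 from mesenchymal cells and Sdc3 from nerve and developing cartilage, and Sdc4 sits at focal adhesions. Sdc1 read 9.97, 9.97 and 10.37 on the Schmid arrays and 11.80, 11.89 and 11.22 on their wildtypes. Its Schmid arrays all lay below the wildtype arrays, a log2 change of -1.54 ± 0.32 (SE; adjusted p of 0.00778, limma), or -2.90-fold. In Cog it read 11.43, 11.04 and 12.07 against 12.65, 11.65 and 11.83, ranges that overlap (change of -0.53, adjusted p of 0.379).

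Sdc2 probe 1 read 11.99, 12.27 and 12.31 in Schmid and 13.62, 14.14 and 13.90 in wildtype. The groups were more than 1 unit apart, and the change of -1.70 ± 0.18 (adjusted p of 0.000314, -3.24-fold) had the smallest adjusted p of the 81 probes in this comparison. The other Sdc2 probe read 13.07, 12.72 and 12.82 in Schmid and 14.39, 12.86 and 12.87 in wildtype, where wildtype array 1 stood above the other arrays (change of -0.51, adjusted p of 0.452). In Cog the Sdc2 probes changed by -0.30 and -0.25 with adjusted p of 0.384 and 0.800. The Sdc2 call thus rests on 1 of 2 probes measured on all arrays. The first 30 bases of each are shown because of these probes, 1910 bases apart, 1 was called and the other was not (mouse build mm7, chr15:33141162-33141221 for probe 1 and chr15:33143072-33143131 for probe 2, plus strand):
Sdc2 probe 1: aaagctcccatttagtgtctctatttagga
Sdc2 probe 2: taatggccttaattcatacctttctgtcca

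Sdc3 had a probe called in each mutant, and not the same one. Probe 1 read 12.57, 12.77 and 12.57 in Schmid and 14.14, 14.39 and 14.60 in wildtype, with no overlap (-1.74 ± 0.22, adjusted p of 0.000593, -3.34-fold). Probe 2 read 12.46, 12.67 and 12.67 against 12.55, 13.30 and 13.16, with overlapping groups (-0.41, adjusted p of 0.145). In Cog the order was the other way round: probe 2 read 12.20, 12.56 and 12.36 against 13.51, 13.79 and 13.85 in its wildtype, all lower (-1.34 ± 0.19, adjusted p of 0.00705, -2.54-fold). Cog values of probe 1 were 14.39, 14.17 and 13.60 against 14.25, 14.65 and 14.76, which overlap (-0.50, adjusted p of 0.217). A further Sdc3 probe (U52826) was above background on 1 of 12 arrays and had no change that passed the test. The probes of the reference transcript lie on the plus strand of mm7 chromosome 4, at chr4:130040519-130040578 for probe 1 and chr4:130037404-130037463 for probe 2, 3115 bases further upstream. The U52826 probe has no listed position; its sequence runs through the end of the reading frame, and its capitals mark the last codons and the stop, which encode the PDZ-binding end common to the syndecans:
Sdc3 probe 1: gagttcatggccaaaacttaaataagagaa
Sdc3 probe 2: atctgccccagactgtgtccttatgacccc
Sdc3 U52826: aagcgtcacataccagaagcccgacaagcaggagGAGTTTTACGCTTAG

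Sdc4 was not called. Probe 1 read 15.39, 15.02 and 15.11 in Schmid and 15.32, 14.04 and 14.04 in wildtype (0.70, adjusted p of 0.239), and probe 2 read 14.36, 14.40 and 14.42 against 15.58, 14.02 and 14.21 (-0.21, adjusted p of 0.711). Wildtype array 1 was the highest wildtype array at both probes. The Cog changes were 0.21 and 0.63, neither past the threshold. The calls of Sdc1, Sdc2 and Sdc3 in Schmid held in 24 of 25 alternative settings each, the exception being a test against a 2-fold null (adjusted p of 1, 0.145 and 0.215).

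The promoters of the syndecans with a RefSeq window are printed because Sdc1 and Sdc3 both had a probe that fell in Schmid and Sdc4 had none. Windows are the 250 bases before the start in GRCm38.p6, matched by symbol for 28 of the 38 genes (33 windows); Sdc2 has none in the table. Capitals mark the GC box GGGCGG and the CCAAT box CCAAT on either strand. The letters TATAAA, TGACGTCA and the ER stress response element, which begins with a CCAAT box, were also searched on both strands and are not in these windows. Sdc1 has 3 GC boxes and 1 CCAAT box, Sdc3 has 3 GC boxes and Sdc4 has 4. Of all 32851 windows 32.7% hold GGGCGG, 33.8% CCAAT, 12.4% TATAAA, 1.55% TGACGTCA and 0.113% the stress element, and of the 33 windows of members 17, 6, 2, 0 and 0 do. The windows lie at chr12:8771146-8771395 (plus strand), chr4:130792287-130792536 (plus strand) and chr2:164443189-164443438 (minus strand):
Sdc1: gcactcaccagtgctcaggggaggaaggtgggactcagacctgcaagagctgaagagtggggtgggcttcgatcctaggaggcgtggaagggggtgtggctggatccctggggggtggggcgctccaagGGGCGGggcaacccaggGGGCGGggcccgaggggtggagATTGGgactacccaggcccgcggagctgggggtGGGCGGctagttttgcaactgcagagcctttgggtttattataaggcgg
Sdc3: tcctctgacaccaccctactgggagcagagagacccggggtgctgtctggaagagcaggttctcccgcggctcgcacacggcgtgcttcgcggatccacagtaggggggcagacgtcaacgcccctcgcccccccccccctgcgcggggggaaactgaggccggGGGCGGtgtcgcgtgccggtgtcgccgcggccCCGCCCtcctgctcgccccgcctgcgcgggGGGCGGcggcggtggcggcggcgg
Sdc4: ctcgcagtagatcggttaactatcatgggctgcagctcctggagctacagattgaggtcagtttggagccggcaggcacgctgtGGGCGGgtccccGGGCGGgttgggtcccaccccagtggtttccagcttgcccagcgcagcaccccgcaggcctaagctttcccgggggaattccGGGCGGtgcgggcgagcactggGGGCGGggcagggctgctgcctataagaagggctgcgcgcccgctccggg

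Among the laminin-binding alpha subunits, Itga3 moved in opposite directions in the mutants. Itga3 pairs with the beta 1 subunit in a receptor for laminins of epithelial basement membranes. Probe 1 read 12.45, 12.24 and 14.14 in Schmid and 13.96, 15.37 and 15.26 in wildtype. Schmid array 3 lay above wildtype array 1, so the groups overlap, and the change was -1.92 ± 0.49 (adjusted p of 0.0197, -3.79-fold). In Cog the same probe read 16.15, 15.69 and 16.16 against 13.69, 13.21 and 13.35. Every Cog array was above every wildtype array (2.58 ± 0.49, adjusted p of 0.0203, 6.0-fold). The wildtype groups differed by 1.45 at this probe, which did not pass the test (adjusted p of 0.215).

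The other Itga3 probes did not follow. Probe 2 read 10.95, 11.04 and 11.01 in Schmid against 10.37, 10.79 and 11.60 (0.08, adjusted p of 0.871), and 11.45, 11.27 and 10.45 in Cog against 11.36, 11.41 and 11.57 (-0.39, adjusted p of 0.507). Probe 3, above background on 8 of 12 arrays, changed by -0.21 and 0.08. The difference between the changes of probes 1 and 2 was -2.0 in Schmid and 2.98 in Cog, without overlap of the arrays in either, and an exact two-sided permutation test gave the smallest p that 3 against 3 arrays allow (0.1; 0.275 after adjustment over the 22 probe pairs tested). The Itga3 call in Schmid was lost without Schmid 1 (adjusted p of 0.0749), Schmid 2 (0.0704), the Schmid wildtype 2 (0.0786) or 3 (0.0662), and that in Cog without Cog 1 (0.0521), Cog 3 (0.0567), the Cog wildtype 2 (0.0810) or 3 (0.0640), always in the same direction. The Schmid call was also lost with the 2 groups fitted alone (adjusted p of 0.0746) and the Cog call with the processed signal at the 75th percentile (0.0859). The probes lie on the minus strand of mm7 chromosome 11, probe 1 nearest the 3′ end at chr11:95153712-95153771, probe 3 at chr11:95154039-95154098 (327 bases upstream) and probe 2 at chr11:95163210-95164787 (9498 bases upstream, over a genomic span longer than the 60 base probe). Their first 30 bases are given because the probe that was called is the one nearest the 3′ end:
Itga3 probe 1: agacttaactctgctcccttgaccacagag
Itga3 probe 2: cccgtactcctgactttgcaggtggactac
Itga3 probe 3: caggtcgccggaatgggctttatgggtgca

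Itga7, the alpha subunit of the muscle laminin receptor, also had opposite signs. Probe 1 read 10.71, 11.08 and 10.81 in Schmid, all below the wildtype arrays at 11.76, 12.41 and 11.77 (-1.11 ± 0.27, adjusted p of 0.0152, -2.16-fold). In Cog it read 13.54, 13.18 and 13.33, all above 11.94, 12.34 and 13.03 in wildtype (0.91 ± 0.27, adjusted p of 0.0867), a change under 2-fold that missed the threshold and was called without the Cog wildtype 3. The second probe was above background on no array. The call in Schmid was lost without Schmid 1 (adjusted p of 0.0569) or the Schmid wildtype 2 (0.0622), with the processed signal (-0.94, adjusted p of 0.0515 quantile normalized, and -0.93, 0.114 at the 75th percentile), and when trends over array rows alone (-0.86, under 2-fold) or rows and GC content were removed (-0.63, adjusted p of 0.0532).

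Itga6, which forms laminin receptors with the beta 1 and beta 4 subunits, had the only member probe that rose in Schmid. This probe (AK045391) read 12.03, 10.21 and 10.66 in Schmid, and 9.39, 8.76 and 9.16 in wildtype, where none of the arrays had it well above background. Schmid was at least 2.68-fold higher (group means of 10.97 and 9.10, adjusted p of 0.0212), and Schmid array 1 was the highest. Without Schmid 1, or the Schmid wildtype 2 or 3, the adjusted p was 0.0659, 0.0791 and 0.0524. The brighter Itga6 probes were above background on all arrays: BC024571 read 14.40, 13.84 and 14.08 against 13.86, 12.94 and 13.18 (0.78, adjusted p of 0.120), and NM_008397 11.94, 10.87 and 11.01 against 10.80, 9.93 and 11.05 (0.68, adjusted p of 0.258). In Cog the changes from the brightest to the dimmest of the 3 probes were 0.76, -0.34 and 1.12, none past the threshold (adjusted p of 0.237, 0.693 and 0.220).

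**Figure D3:**
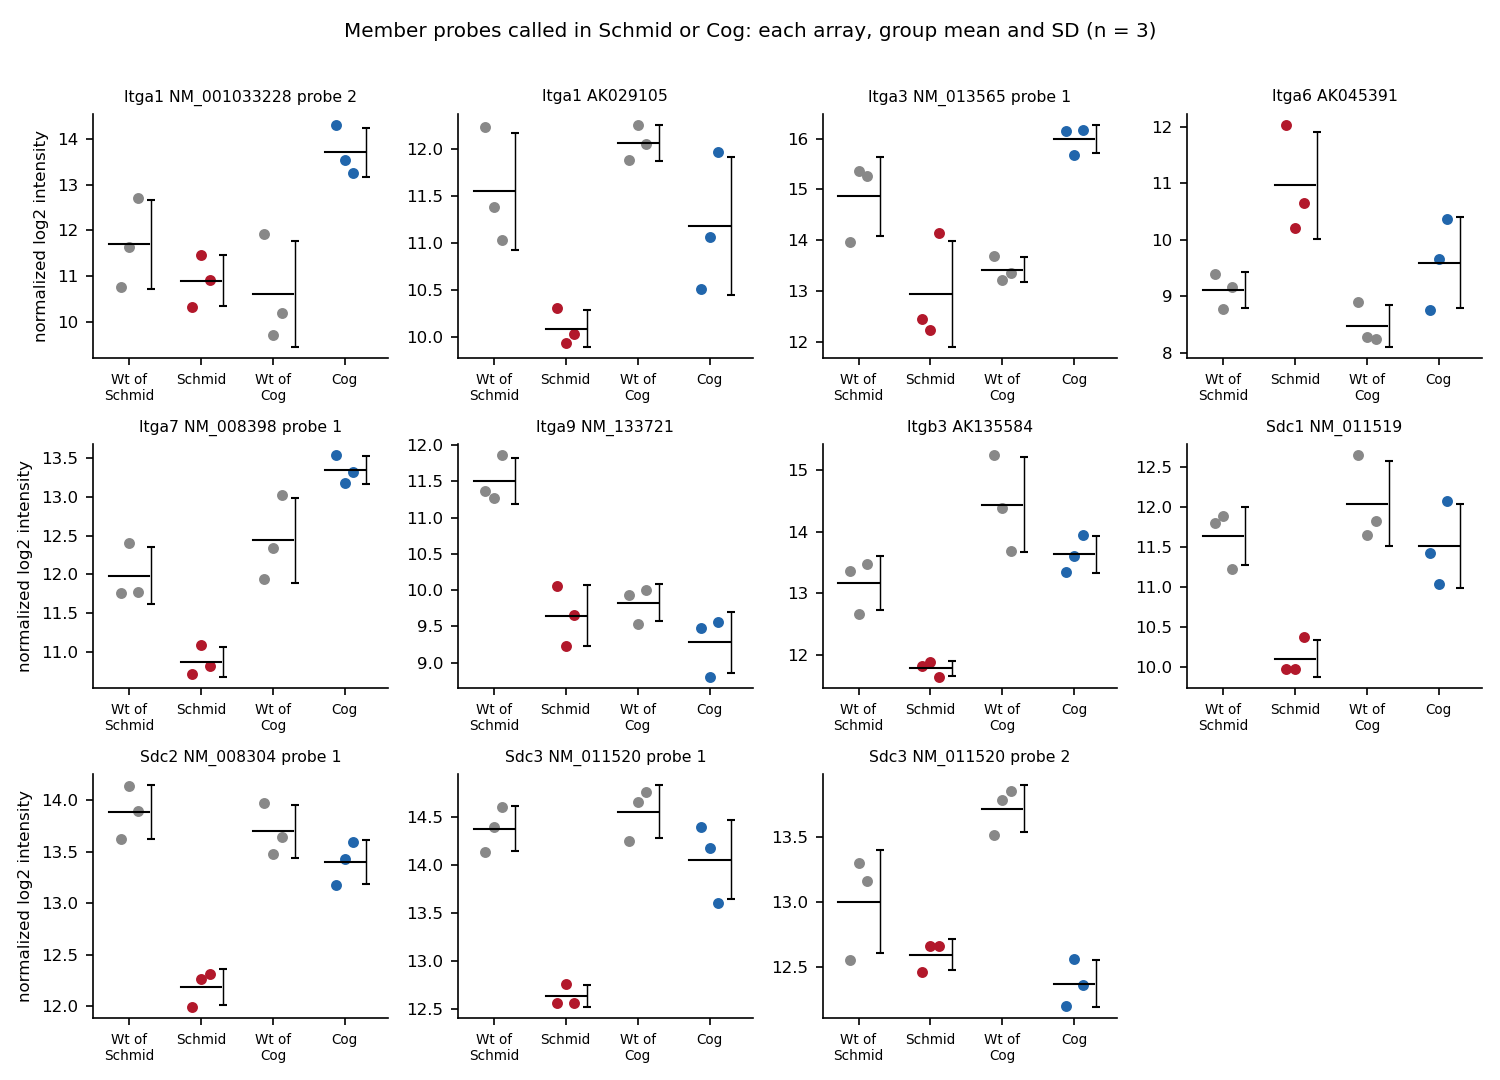
Normalized log2 intensity of the 11 member probes called in Schmid or Cog, 1 point for each array, with the mean (line) and SD (bar) of each group of 3. The Schmid points lie below their wildtypes without overlap at the syndecans (except Sdc3 probe 2), Itga7, Itga9, Itgb3 and Itga1 AK029105, and the Cog points lie above theirs at Itga1 probe 2, Itga3 and Itga7.

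Among the collagen-binding alpha subunits, Itga1 was called by different probes in the mutants. Itga1 pairs with the beta 1 subunit and prefers collagen IV and other non-fibrillar collagens. The AK029105 probe read 10.31, 9.94 and 10.04 in Schmid, below the wildtype arrays at 12.23, 11.38 and 11.03 (-1.46 ± 0.37, adjusted p of 0.0183, -2.74-fold). The brightest probe, AK040830, read 11.50, 11.43 and 11.80 against 13.63, 12.70 and 12.05, also without overlap, but missed the threshold (-1.22 ± 0.46, adjusted p of 0.0805). It was called lower with slide as a random block, with row and GC trends removed, and without Cog 3 or the Schmid wildtype 3. Probe 2 read 10.33, 11.46 and 10.92 against 10.76, 11.64 and 12.70, with overlap (-0.80, adjusted p of 0.363).

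In Cog, Itga1 probe 2 read 14.30, 13.55 and 13.26 against 11.92, 9.72 and 10.19 in wildtype. All Cog arrays were higher, by 3.09 ± 0.62 (adjusted p of 0.0232, 8.54-fold), the highest fold of the 81 probes. The Cog values of AK029105 (10.51, 11.06 and 11.97 against 11.88, 12.25 and 12.05; -0.88, adjusted p of 0.203) and AK040830 (12.18, 12.70 and 13.80 against 13.81, 13.14 and 12.81; -0.36, adjusted p of 0.699) overlapped their wildtypes. With array weights AK029105 was called lower in Cog. Probe 4 was above background on 9 of 12 arrays and changed by -0.03 in Schmid and -0.36 in Cog. The Cog call of probe 2 was lost without Cog 1 (adjusted p of 0.0641), Cog 2 (0.0549), the Cog wildtype 2 (0.0935) or 3 (0.0789), with the 2 groups alone (0.0713) or with the processed signal at the 75th percentile (0.06), and the Schmid call of AK029105 without Schmid 2 (0.0585) or Schmid 3 (0.0539). These probes lie on the minus strand of mm7 chromosome 13. AK040830 is nearest the 3′ end (chr13:112131039-112131098), AK029105 lies 51867 bases upstream of it (chr13:112182906-112182965) and probe 2 71929 bases upstream (chr13:112202968-112207106, again over a span longer than the probe). The sequences are given because the Cog change was above 0 at the last of them and below 0 at the others:
Itga1 AK040830: ttgtaccaagaaatcactgctttcgaacat
Itga1 AK029105: aaggaccacggatgcaggtcataaacagtg
Itga1 probe 2: ttgggagagagagatcaatgccttgtgtga

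Itga11, a receptor for fibrillar collagens on mesenchymal cells, read 10.57, 10.91 and 10.29 in Schmid and 12.07, 12.11 and 11.59 in wildtype. The groups did not overlap, but the change of -1.34 ± 0.55 missed the threshold (adjusted p of 0.102); it was called with normexp at the 75th percentile, with the 2 groups alone and without Cog 2 or 3. The Cog arrays spread from 10.26 to 12.95. Itga10, the collagen II receptor of chondrocytes, and Itga2 were dim. The Itga10 probe was above background on 1 of 12 arrays and read between 8.78 and 9.47 throughout, and each of the 2 Itga2 probes was above background on 1 array and lay between 8.16 and 9.72. The discoidin receptors were not called. Ddr2, the receptor kinase for fibrillar collagens in skeletal cells, read 13.05, 13.28 and 12.43 against 12.18, 10.97 and 10.59 at its brightest probe, all higher in Schmid (1.67 ± 0.58) with an adjusted p of 0.0590, and 11.95, 12.10 and 11.50 against 12.69, 10.77 and 10.36 in Cog (0.58, adjusted p of 0.612). Its other probe changed by -0.00 and -0.04. The brightest Ddr2 probe was called higher in Schmid in 8 of the alternatives: normexp at the 75th percentile, the 2 groups alone, array weights, dim probes left out, the replicate block, slide as a random block, and without the Schmid or the Cog wildtype 1. Ddr1 read 13.62, 14.69 and 14.59 in Schmid against 13.84, 14.39 and 13.90, and 14.97, 14.79 and 14.33 in Cog against 14.12, 14.49 and 14.45 (0.26 and 0.35, adjusted p of 0.537 and 0.529).

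Itga9, which forms with the beta 1 subunit a receptor for tenascin C and osteopontin, fell in Schmid. It read 10.06, 9.23 and 9.66 against 11.37, 11.27 and 11.86 in wildtype, with more than 1 unit between the groups (-1.85 ± 0.27, adjusted p of 0.00131, -3.61-fold), and was above background on 2 of the Schmid arrays and on all 3 wildtype arrays. In the Cog background it was near background in both genotypes, at 9.48, 8.80 and 9.56 in Cog and 9.94, 9.53 and 10.01 in wildtype. The Schmid arrays overlapped the wildtype arrays of the other background, and the wildtype groups themselves differed by 1.67 at this probe (adjusted p of 0.0231, 3.19-fold). That difference was lost without the Schmid wildtype 2 (adjusted p of 0.0539) or 3 (0.0662) or the Cog wildtype 1 (0.065), 2 (0.1) or 3 (0.0606). The Schmid call of Itga9 itself was kept in each of these fits. None of the 6 Itga4 probes, for the partner of beta 1 and beta 7 on leukocytes, was called, and they changed by -0.49 to 0.65 in Schmid. With the processed signal, under either scaling, probe 2 was called lower. The highest change, of AK039959 (adjusted p of 0.00254, under 2-fold), was at a probe above background on no array.

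None of the 9 probes of subunits that bind the Arg-Gly-Asp motif was called in either mutant, and none was well above background on all arrays. Under other choices some were called lower in Schmid: Itga5 and Itgav AK011583 with the processed signal under either scaling, Itga2b with it quantile normalized, Itga8 probe 1 at the 75th percentile of either signal and with the replicate block, and Itga8 probe 2 with normexp at that percentile. With array weights Itga8 probe 1 was called lower in Cog. Itga5, the fibronectin receptor subunit, read 9.80, 9.88 and 9.88 in Schmid and 10.26, 10.64 and 10.50 in wildtype, without overlap, a change of -0.61 ± 0.18 that passed the p threshold (adjusted p of 0.0305) but was under 2-fold. In Cog it read 10.31, 10.15 and 10.29 against 9.88, 10.23 and 10.63. The brightest Itgav probe (the vitronectin receptor subunit) read 9.48 on each of the Schmid arrays and 9.84, 10.01 and 9.93 in wildtype (-0.45, adjusted p of 0.00831), and its 4 probes changed by -0.45 to 0.28. The 3 probes of Itga8, a nephronectin receptor subunit, were above background on none of the Schmid arrays, and their changes did not pass the test in either mutant. Itga2b, the platelet subunit, changed by -0.36 (adjusted p of 0.0443) in Schmid beside megakaryocyte genes of which none of the 5 on the array was called (1 had an unadjusted p of 0.05 or less), and Gp1ba was above background on no array.

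Of the beta subunits, Itgb3 was called. It forms the vitronectin receptor of osteoclasts and the platelet fibrinogen receptor. The AK135584 probe read 11.82, 11.88 and 11.64 in Schmid, below 13.36, 12.67 and 13.47 in wildtype (-1.39 ± 0.35, adjusted p of 0.0185, -2.62-fold). The brighter NM_016780 probe read 14.96, 13.92 and 14.06 against 12.91, 14.81 and 15.35 (-0.05, adjusted p of 0.960). In Cog the former changed by -0.81 and the latter by 0.88, neither past the threshold, and the difference between them did not overlap (1.69, exact two-sided permutation p of 0.1). The Schmid call was lost without Schmid 1 (adjusted p of 0.0525), Schmid 3 (0.0587) or the Schmid wildtype 3 (0.0640), with the processed signal at the 75th percentile (0.0517), and when row and GC trends were removed (0.0549). The osteoclast list beside which it stands was lower in Schmid as given above, and its part was not tested.

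Itgb1, the partner of most matrix-binding alpha subunits, read 12.02, 11.84 and 11.88 in Schmid against 12.28, 10.99 and 11.17, and 12.39, 12.45 and 12.10 in Cog against 13.02, 11.66 and 11.70, from a probe with 10 spots on each array. Both ranges overlap (0.44 and 0.19, adjusted p of 0.435 and 0.823), and wildtype array 1 was the highest in either background. Itgb5, one of the partners of Itgav, read 16.07, 16.13 and 15.97 against 15.90, 16.22 and 15.60 in Schmid, and 16.16, 15.71 and 15.77 against 15.90, 16.17 and 16.48 in Cog, changes of 0.15 ± 0.20 and -0.30 ± 0.20. Itgb4, Itgb6, Itgb7 and Itgb8 had no call in either mutant, the nearest being an Itgb8 probe (XM_901358, above background on 5 of 12 arrays) that was all lower in Cog at -0.95 (adjusted p of 0.015, -1.93-fold). That probe was called in Cog with the processed signal quantile normalized and without Cog 1 or the Cog wildtype 3. With the processed signal, under either scaling, Itgb4 NM_001005607 was called higher and Itgb8 XM_484197 probe 1 lower in Schmid.

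None of the 8 probes of leukocyte alpha subunits was called in a mutant. Under each of the 3 other background and scaling choices the brighter Itgal probe, Itgam and Itgae NM_172944 were called lower in Schmid. The brighter Itgax probe was called lower at the 75th percentile of either signal, with slide as a random block and without the Schmid wildtype 3. Itgal, the subunit of LFA-1, read 10.39, 10.39 and 10.44 in Schmid and 11.18, 11.52 and 11.29 in wildtype at its brighter probe (-0.92 ± 0.11, adjusted p of 0.000464). In Cog it read 11.09, 11.08 and 11.22, above 10.84, 10.92 and 10.90 (0.24, adjusted p of 0.225). Its other probe, AK156251, read 10.62, 9.89 and 9.96 in the Schmid wildtypes, and in the Cog wildtypes 8.84, 8.52 and 8.68, where it was above background on none. It was called between the wildtypes, higher in those of the Schmid background (group means of 10.16 and 8.68, adjusted p of 0.0369). The size of the fold is uncertain, because the probe was not well above background on the Cog wildtype arrays. That call was lost without Schmid 3 (adjusted p of 0.0645), Cog 2 (0.0573), the Schmid wildtype 2 (0.0696) or 3 (0.0679) or the Cog wildtype 1 (0.0799), 2 (0.135) or 3 (0.0919). Itgam, of the macrophage complement receptor, and 1 Itgae probe passed the p threshold in Schmid under 2-fold (-0.62, adjusted p of 0.00556, and -0.81, adjusted p of 0.00371). The brighter Itgax probe, above background on none of the Schmid arrays, changed by -1.23 and did not pass it (adjusted p of 0.0666). The other Itgax probe read 10.02, 10.04 and 10.07 against 9.78, 9.82 and 9.11, all higher in Schmid (0.47, adjusted p of 0.206). Itgb2, the beta subunit of Itgal, Itgam and Itgax, changed by -0.47 (adjusted p of 0.219). In Cog, Itgb2 read 10.51, 10.49 and 10.61, below 11.67, 11.45 and 11.68, just outside the threshold (-1.06, adjusted p of 0.0539), and it was called with the 2 groups alone, array weights, dim probes left out or slide as a random block, and without the Schmid wildtype 1 or 3. Of 4 macrophage genes, 1 (Csf1r) was called lower in Schmid and none in Cog, the mean level of the list running from 10.8 to 10.9 on the Schmid arrays and from 11.1 to 11.9 on those of its wildtype. None of 6 neutrophil genes was called, with means from 9.13 to 11.6 and from 9.52 to 13.9.

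No glypican was called in the limma fit of all 12 arrays. Gpc2 was called lower in Schmid at the 75th percentile of either signal, and Gpc3 with array weights and without Schmid 1 or its wildtype 1, while Gpc4 CF585279 and Gpc6 probe 1 were called higher in Cog with array weights and without the Cog wildtype 1. Gpc1 read 17.38, 17.58 and 17.53 in Schmid and 18.18, 18.36 and 18.51 in wildtype, without overlap (-0.85 ± 0.14, adjusted p of 0.00220, -1.81-fold), and 18.49, 18.35 and 18.23 in Cog against 18.28, 18.38 and 18.69. Gpc3, the glypican mutated in an overgrowth syndrome, read 11.77, 11.27 and 11.22 against 12.17, 12.60 and 12.44, at the edge of the fold threshold (-0.98 ± 0.21, adjusted p of 0.00918, -1.98-fold). Gpc4 read 14.28, 14.22 and 14.04 in Schmid and 14.31, 14.38 and 14.55 in wildtype, and its Cog arrays read 15.39, 15.53 and 15.53 against 15.36, 15.18 and 15.10 (-0.23 and 0.27, adjusted p of 0.165 and 0.217). The wildtype groups differed at this probe by -0.80 (adjusted p of 0.0164), under 2-fold, and at the other Gpc4 probe, CF585279, by -0.78 (adjusted p of 0.248). Gpc2 and both Gpc5 probes were above background on no array, and Gpc6 probe 1 changed by 0.998 ± 0.447 in Cog (adjusted p of 0.232).

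Cd44, the hyaluronan receptor, has 3 probes, none of them called. The brightest read 13.74, 13.65 and 13.63 in Schmid against 14.15, 13.34 and 13.33 (0.07, adjusted p of 0.918). Probe 2, with 10 spots, read 12.09, 12.27 and 12.67 against 12.81, 13.11 and 13.42 (-0.77, adjusted p of 0.0809), and in Cog 11.23, 12.17 and 10.92 against 12.74, 12.52 and 12.58, all lower but just outside the threshold (-1.18 ± 0.29, adjusted p of 0.0510). It was called with the deposited log2 table, dim probes left out or slide as a random block, and without Cog 2 or the Schmid wildtype 1. Probe 3, above background on none of the Schmid and Cog arrays, read 8.95, 8.83 and 8.94 in Schmid, all below 9.49, 9.49 and 9.72 (-0.66, adjusted p of 0.00231, under 2-fold), and 9.43, 9.54 and 9.58 in Cog against 9.35, 9.56 and 9.49. It was called lower in Schmid under each of the 3 other background and scaling choices.

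The change in Schmid was compared directly with the change in Cog, with an adjusted p of 0.05 or less as the only criterion. It differed at 19 of the 81 probes (23.5%, against 16.6% of all probes), of 16 genes: 15 were lower in Schmid relative to Cog (18.5%, against 10.2%) and 4 were higher (4.94%, against 6.38%). Of the 19, 8 were well above background on all arrays. The difference was -4.51 ± 0.70 for Itga3 probe 1, -3.89 ± 0.87 for Itga1 probe 2 and -2.02 ± 0.38 for Itga7, and these 3 probes had opposite signs in the mutants. It was -1.40 ± 0.26 for Sdc2 probe 1, and for Sdc3 it was -1.24 ± 0.30 at probe 1 and 0.94 ± 0.27 at probe 2. Sdc1 and Itgb3 AK135584 were called in Schmid and not in Cog, but their changes were not shown to differ between the mutants (-1.01, adjusted p of 0.154, and -0.58, adjusted p of 0.447). The Itga3 difference was the only one of the 19 that passed under all 24 alternatives.

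Of the other differences, all but those of Gpc1 and the brighter Itgal probe were at probes not above background on every array. Gpc2, a glypican of the nervous system, read 8.88, 8.90 and 8.84 in Schmid and 9.30, 9.60 and 9.44 in wildtype, and in Cog 9.67, 9.62 and 9.58 against 9.22, 9.23 and 9.31. The Schmid arrays all lay below and the Cog arrays all above their wildtypes, yet no array had the probe above background. Itgam read 9.08, 9.35 and 9.17 against 9.59, 9.92 and 9.94, and in Cog 9.87, 9.79 and 9.78 against 9.60, 9.56 and 9.64, again on either side of wildtype. Itgb4 NM_001005607 read between 9.48 and 9.53 in Schmid, the only group where it was above background, against 8.89, 9.06 and 8.93, and in Cog 9.17, 8.83 and 8.79 against 9.35, 9.44 and 9.29. The Itga9 difference was -1.31 ± 0.38.

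The other 7 such probes had differences between -0.73 (Itga8 probe 3) and 0.87 (Itga4 AK039959). Itga8 probe 3 read 9.33, 9.33 and 9.28 in Schmid, below 9.37, 9.67 and 9.72, and 10.04, 9.93 and 9.75 in Cog, above 9.39, 9.41 and 9.53. Itgav AK080357 read 9.09, 8.92 and 8.97 against 9.21, 9.38 and 9.34, and in Cog 9.41, 9.39 and 9.35 against 9.28, 9.26 and 9.26. Both thus lay on either side of their wildtypes, as did Itgb8 XM_484197 probe 1, which read 9.22, 9.31 and 9.33 against 9.61, 9.93 and 9.74, and in Cog 9.87, 9.77 and 9.87 against 9.71, 9.61 and 9.68. The Cog arrays of Itgav AK011583, at 9.84, 9.78 and 9.84, overlapped their wildtypes at 9.75, 9.71 and 9.92. Itga4 AK039959 read 9.15, 9.09 and 8.98 in Schmid, above 8.40, 8.46 and 8.40, and in Cog 8.44, 8.41 and 8.70 against 8.76, 8.81 and 8.65, and its difference changed sign with the processed signal. Itgb8 XM_901358 read 9.49, 9.32 and 9.39 against 9.64, 9.68 and 9.21, which overlap, and in Cog 9.10, 8.75 and 8.84, all below 10.10, 9.83 and 9.61.

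**Figure D4:**
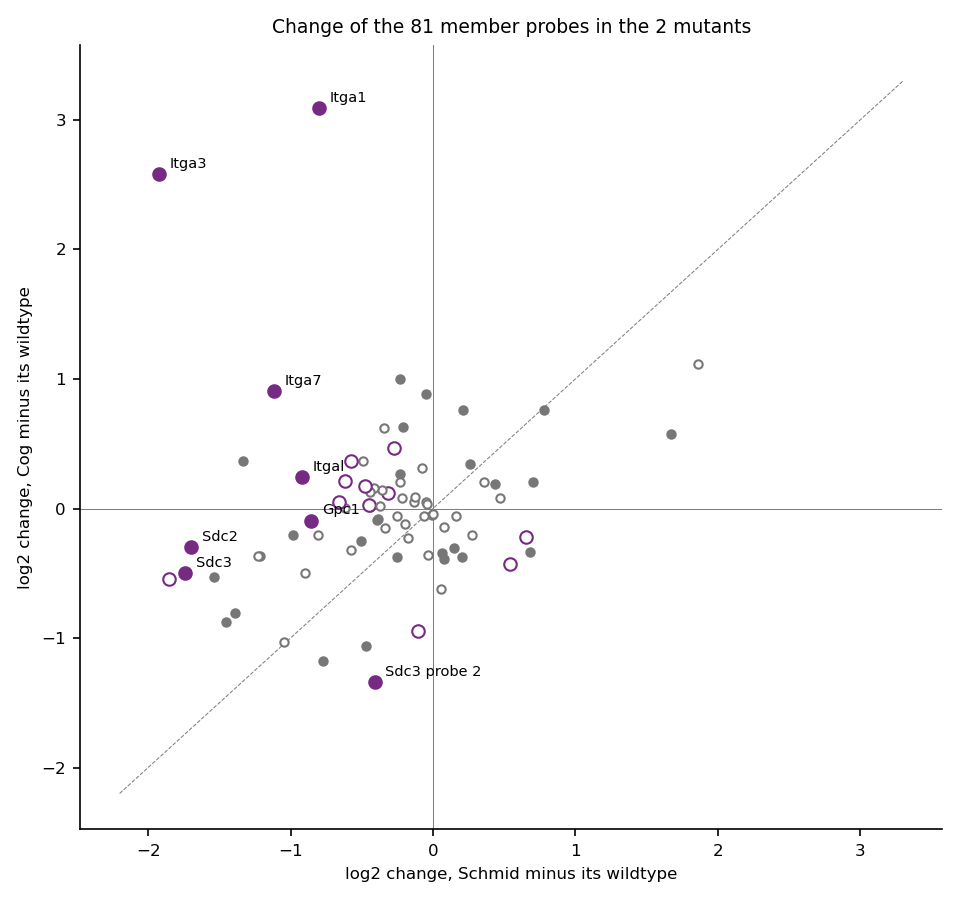
Log2 change of each of the 81 member probes in Schmid (horizontal) and in Cog (vertical), each against its own wildtype; purple marks probes whose changes differed at an adjusted p of 0.05 or less, filled symbols probes well above background on all 12 arrays, and the dashed line equal change. Of the filled purple points, Itga1 probe 2, Itga3 probe 1, Itga7 probe 1 and the brighter Itgal probe lie in the upper left, below 0 in Schmid and above 0 in Cog. The other Itga1 probes lie below 0 in both mutants.

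Because so many genes had a called probe beside one that was not, the probes of a gene were compared with each other. For the 10 genes with several probes above background on all arrays, the brightest was set against each other probe within each mutant, 11 pairs in Schmid and 11 in Cog. The per-array difference between the probes did not overlap between mutant and wildtype in 4 of 11 pairs in Schmid (Itga3, Itgb4, Sdc3 and Sdc4) and in 4 of 11 in Cog (Itga1, Itga3, Itgb3 and Sdc3). The share over probe pairs of all genes was not computed, so these counts are not a result about these genes. Single probes did not overlap at 19.3% (all higher) and 26.1% (all lower) of all probes in Schmid, and at 16.4% and 13% in Cog. No pair can pass an exact permutation test of 3 against 3 arrays, whose smallest two-sided p is 0.1 (0.275 adjusted over the 22 pairs). The span of the probes' changes within a gene reached 2.0 in Schmid (Itga3) and 3.97 in Cog (Itga1), against 0.10 for Itga6 in Schmid and 0.04 for Sdc2 in Cog.

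**Figure D5:**
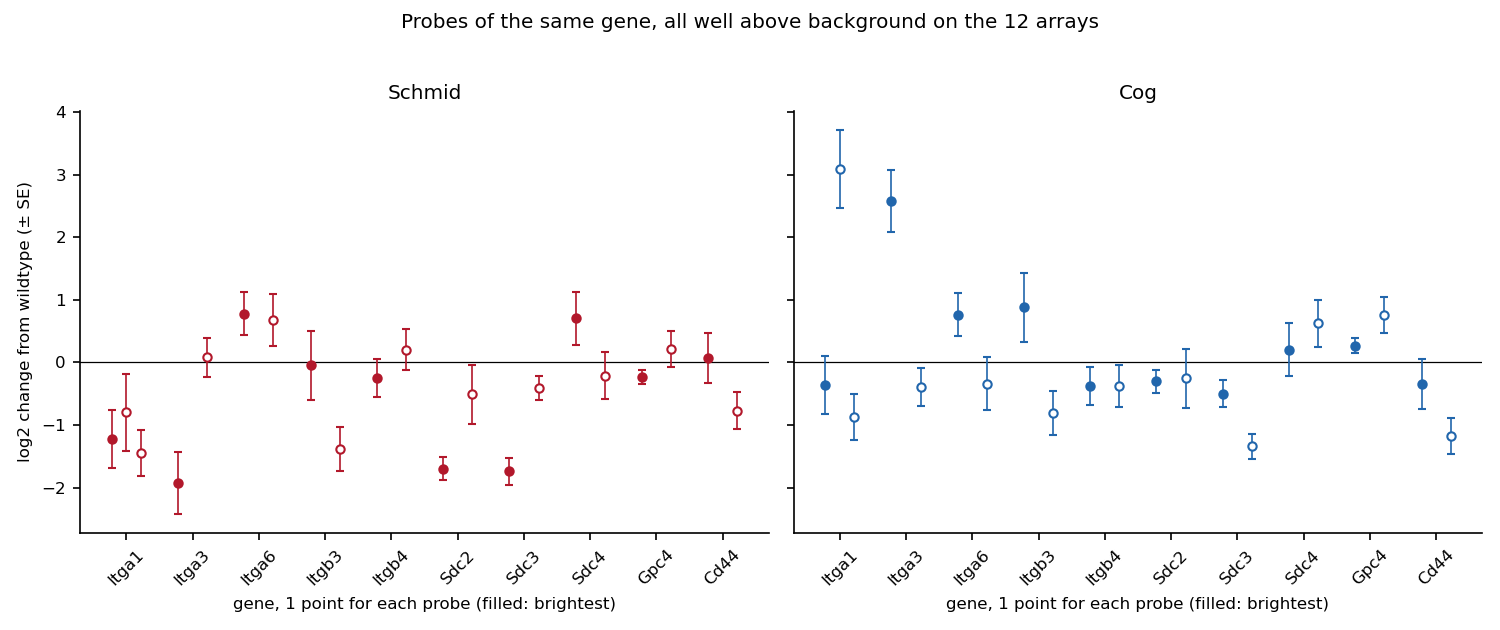
Log2 change (± SE, n = 3 against 3) of each probe of the 10 genes with several probes above background on all 12 arrays, in Schmid (left) and Cog (right); filled points are the brightest probe. The changes of the Itga3 probes span 2.0 in Schmid and those of the Itga1 probes 3.97 in Cog, while those of Itga6 in Schmid lie together.

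The wildtype groups differed at 2 member probes (2.47%, against 0.469% of all probes), Itga9 and Itgal AK156251 as given above, both higher in the Schmid background (0.233% of all probes in that direction). At an unadjusted p of 0.05 or less there were 11 (13.6%, against 14.1% of all probes).

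Partners of these receptors were counted by the brightest probe of each gene. Of the 26 adhesion adaptors on the array, which link integrin tails to actin or signal from them, 4 fell in Schmid and 1 rose. Tln2 and Lims1 each had a dimmer probe called higher in Schmid, which this count leaves out. Of all probes 4.69% fell and 5.78% rose, or 10.7 and 8.64% of those well above background on all arrays, the state of 21 of the 26 adaptors. Those with the greatest change were Tns1 (tensin, -3.97-fold, adjusted p of 0.00139), Gipc1 (a PDZ protein that binds integrin and syndecan tails, -2.72-fold, adjusted p of 0.0393), Fyn (a Src family kinase, 2.47-fold, adjusted p of 0.00232, above background on 1 of the 3 wildtype arrays) and Bcar1 (p130Cas, -2.41-fold, adjusted p of 0.0209). In Cog, Itgb1bp1, which binds the tail of the beta 1 subunit, fell (-2.22-fold, adjusted p of 0.0200) and no adaptor rose. The median change of the adaptors was -0.26 in Schmid and -0.13 in Cog.

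Of 33 ligands, 6 fell and 1 rose in Schmid, beside the same shares of all probes (4.69 and 5.78%) and of those measured on all arrays (10.7 and 8.64%), as 25 of the 33 were. A dimmer probe of Has2 was also called lower, outside this count. Thrombospondin 2 (Thbs2, -5.70-fold, adjusted p of 0.000649), Ctgf (-4.85-fold, adjusted p of 0.000918) and midkine (Mdk, -4.21-fold, adjusted p of 2.46e-05), a heparin-binding growth factor, fell, and Fbln5, an elastic fibre protein that binds integrins, rose 4.71-fold (adjusted p of 0.000392). In Cog, Fgf2, which needs heparan sulfate to signal, rose 5.62-fold (adjusted p of 0.0203, above background on 2 of the 3 wildtype arrays) and Thbs2 rose 2.60-fold (adjusted p of 0.0373). Only these 2 of the 33 ligands were called there. Of all probes 1.56% rose and 0.748% fell in Cog, or 3.02 and 1.23% of those measured on all arrays. The median change of the ligands was -0.44 in Schmid and -0.02 in Cog.

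Of 23 enzymes that build or edit heparan sulfate, 3 rose and 3 fell in Schmid, beside 5.78 and 4.69% of all probes. Among probes measured on all arrays, as 17 of the 23 were, 8.64% rose and 10.7% fell. By the brightest probe no enzyme was called in Cog, where 1.56% of all probes rose and 0.748% fell. Outside these counts, the dimmer probe of Extl3 was called higher in Cog and that of Extl1 lower in Schmid. By limma, the brightest probes of 10 enzymes in Schmid and 4 in Cog were at an unadjusted p of 0.05 or less. Hpse (heparanase, which cleaves the chains, -3.38-fold, adjusted p of 0.0161) and Xylt2 (which starts them, -3.24-fold, adjusted p of 0.00196) fell, as did Ndst3, and Sulf1 (a 6-O-endosulfatase, 2.94-fold, adjusted p of 0.00171) rose with Glce and Extl2. Hpse changed to a similar degree in Cog without a call (-2.95-fold, adjusted p of 0.0704). Its mean was 11.92 in the wildtypes of the Schmid background and 14.84 in those of the Cog background. The median change of these enzymes was -0.19 in Schmid and -0.03 in Cog, beside -0.06 and -0.00 for all probes.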

How the data were processed

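Hypertrophic zone RNA of 12 mice was measured on Agilent single-colour arrays. The authors scanned the arrays with Feature Extraction 9.5.3 and deposited mean signal and background intensity for each spot, together with a table of log2 values that the authors had normalized. Here intensities were corrected by normexp (offset 50) and quantile normalized, control and flagged spots were left out, and spots of a probe were averaged (R 4.3.3, limma 3.58.1). One model with the 4 groups (8 residual degrees of freedom) was fitted over 41174 probes, with Benjamini-Hochberg adjustment, and called at an adjusted p of 0.05 and 2-fold; the difference between mutants was called on the adjusted p alone.

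Per-array values were given for members called in any comparison and for receptors known in chondrocytes. Partners and marker genes (chondrocyte, endothelial, osteoclast, macrophage, neutrophil, megakaryocyte, red cell and osteoblast) were counted by their brightest probe. A further marker list is not reported here. Members and lists were chosen with earlier results of these data known. The fit was tested on simulated data. Alternatives varied the background, scaling, model, filters and arrays. The fit with slide as a random block (slide correlation of -0.122) does not separate slide from genotype, and calls gained in it are not adjusted for slide. Probe positions are those of the array design (mm7), for which no gene annotation was used here, and promoters are RefSeq sequences (GRCm38.p6).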

Additional observations from a re-analysis of the deposited data

Results flagged for a closer look

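The change in Schmid differed from the change in Cog at 19 member probes by limma's test of the difference itself, each given as the log2 difference, Schmid minus Cog, with its adjusted p. Among alpha subunits with a matrix ligand, this held for Itga1 probe 2 (-3.89, adjusted p of 0.0146), Itga3 probe 1 (-4.51, 0.00269), Itga7 probe 1 (-2.02, 0.00684), Itga8 probe 3 (-0.73, 0.0175), Itgav AK011583 (-0.48, 0.0374) and Itgav AK080357 (-0.43, 0.0482), all lower in Schmid relative to Cog. Itga9 (-1.31, 0.0421) was lower and Itga4 AK039959 (0.87, 0.00502) higher. Of the leukocyte subunits it held for Itgal NM_008400 (-1.16, 0.00126) and Itgam NM_008401 (-0.83, 0.0101). Of the beta subunits it held for Itgb4 NM_001005607 (0.97, 0.0045), Itgb8 XM_484197 probe 1 (-0.65, 0.0162) and Itgb8 XM_901358 (0.84, 0.0371).

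Among the proteoglycans and Cd44 the probes were Sdc2 probe 1 (-1.40, 0.00619), Sdc3 probe 1 (-1.24, 0.0212), Sdc3 probe 2 (0.94, 0.0413), Gpc1 (-0.76, 0.0263), Gpc2 (-0.94, 0.00223) and Cd44 probe 3 (-0.71, 0.0123). The Sdc3 probes differed in opposite directions. Of the 19, 8 were well above background on all 12 arrays.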

How the results depend on the processing

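Member probes called lower in Schmid (8) numbered 16 with the processed signal and quantile normalization, 17 with normexp and 17 with the processed signal at the 75th percentile, and 0 against a 2-fold null. Those called higher in Schmid (1) numbered 2 with the processed signal under either scaling, with the 2 groups alone, array weights, dim probes left out or slide as a random block, 3 with normexp and the 75th percentile, and 0 against a 2-fold null. In Cog the 2 higher numbered 0 with the processed signal at the 75th percentile, 1 with the 2 groups alone, 5 with array weights and 0 against a 2-fold null. The 1 lower numbered 2 with the processed signal and quantile normalization, the deposited log2 table or the 2 groups alone, 4 with array weights, 3 with dim probes left out or slide as a random block, and 0 with the processed signal at the 75th percentile or against a 2-fold null. The 19 differences between the mutants numbered 9 with the processed signal at the 75th percentile, 12 with dim probes left out and 1, Itga3 probe 1, against a 2-fold null. The 2 differences between wildtypes numbered 1 with the processed signal and quantile normalization or the row trend removed, and 0 at the 75th percentile of either signal or against a 2-fold null. At an unadjusted p of 0.05 or less, limma against that null gave 4 lower and 0 higher in Schmid, 2 higher in Cog, 3 differences and 1 between wildtypes. The processed signal at the 75th percentile gave 10 higher and 5 lower in Cog and 9 between wildtypes, and normexp at that percentile 7 between wildtypes.

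Leaving out 1 array gave 0 to 4 higher and 6 to 10 lower in Schmid, 0 to 4 higher and 1 to 3 lower in Cog, 13 to 23 differences and 0 to 3 between wildtypes. The 4 in Schmid came without the Schmid wildtype 1 and added Ddr2 AK035414, Itga6 BC024571 and Sdc4 probe 1, and the 0 came without Schmid 1 or the Schmid wildtype 2 or 3. In Cog the 4 higher came without the Cog wildtype 1 and the 0 without Cog 1 or the Cog wildtype 2. The Itga4 AK039959 difference reversed to -1.19 (adjusted p of 0.0229) with the processed signal and quantile normalization and to -1.14 (0.297) at its 75th percentile. The cause was not tested.

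The members' median change in Schmid was -0.53, -0.60 and -0.72 under the other scalings, where that of all probes was -0.04, -0.35 and -0.40. In Cog it was -0.10, 0.00 and 0.15, where that of all probes was -0.04, 0.01 and 0.43. Over all probes 55.2% of the Schmid calls were higher, against 42.0, 42.6 and 42.5% under these scalings.

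Whether the replicate numbers pair the samples is not settled. Mutant and wildtype arrays of the same number had correlations of 0.193, 0.171 and 0.066 in Schmid and -0.116, 0.072 and -0.106 in Cog. Of the Schmid and wildtype arrays, 5 of 6 correlated best with their own number (2 of 6 for Cog). Between the 2 wildtype groups the correlations were 0.406, 0.047 and 0.190. With the replicate block, 2 probes were higher and 9 lower in Schmid, 2 higher and 1 lower in Cog, 17 differed between mutants and 2 between wildtypes. Signal near background limits the 33 probes measured on some arrays and the 14 measured on none.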
